A study of Mus musculus with 6 samples.

Results

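The clustered protocadherin genes were followed in RNA sequencing of lineage-depleted mouse bone marrow. They were chosen with earlier results of these data known. Membership went by symbol, as every row of the count table named Pcdha, Pcdhb or Pcdhg with a number, or with a subtype letter and a number. This gave 25 of 33924 listed genes, of which 2 belong to the alpha cluster, 22 to the beta cluster and 1 to the gamma cluster. The groups were 3 libraries labelled Stag2KO and 3 labelled Stag2WT, all from marrow stripped of cells with mature lineage markers on magnetic beads. Stag2 is one of the alternative STAG subunits of cohesin, a ring-shaped complex that entraps DNA, pairs sister chromatids and extrudes loops. The labels give no strain, age, treatment or Cre driver, and do not state whether each library is a different mouse, so the p-values reflect the scatter of these libraries, which may be technical.

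Clustered protocadherins are cadherin-family adhesion proteins best known from neurons, where each cell switches on its own small mix of members and matching mixes on other cells are recognised. The genes lie side by side in 3 neighbouring clusters. In the alpha and gamma clusters each variable first exon has its own promoter and is spliced to exons shared by the cluster, whereas each beta gene is an intact unit, in most cases with a single exon. In neurons, CTCF and cohesin fold the promoters towards distant enhancers, which sets the choice of promoter. The question here was whether reads of these genes differed in marrow with the Stag2KO label.

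RefSeq (GRCm38) names 14 alpha, 22 beta and 22 gamma genes, all on chromosome 18. The count table, made on mm9, lists 2, 22 and 1 of them. Pcdha3 and Pcdha11 are the alpha rows and Pcdhgc5 is the gamma row. The labels do not say which exons these 3 rows collect, so Pcdhgc5 is described below as a row and not as a promoter. The beta rows are complete by name, and most of what follows concerns them.

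The targeted gene was checked first. Stag2 stood at 169, 186 and 183 CPM (reads of the gene relative to all gene reads of the library, after TMM scaling) in the Stag2KO libraries, against 338, 328 and 324 CPM in the Stag2WT libraries. The groups did not overlap, and 54.4% of the Stag2WT level remained in Stag2KO (log2 fold change -0.88, SE 0.06, adjusted p = 0.000278, edgeR). Gene reads numbered 29435651 to 37722325 per library, so 3 reads correspond to 0.0785 to 0.103 CPM. Of the 18 stem and progenitor genes listed, all were tested, among them Kit, the stem cell factor receptor gene, which averaged 244 CPM in Stag2KO libraries and 235 CPM in Stag2WT libraries. Their summed level was 14188 to 16627 CPM in Stag2KO libraries and 10064 to 12064 CPM in Stag2WT libraries. Most of this sum came from the granule genes Mpo, Elane, Prtn3 and Ctsg, so it does not stand for the list as a whole. Mpo alone averaged 7606 CPM in Stag2KO and 5089 CPM in Stag2WT.

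Beta protocadherin reads were about 3 times as many in Stag2KO marrow. Summed over the 22 beta genes, the Stag2KO libraries held 169, 292 and 190 reads, against 93, 49 and 80 reads in the Stag2WT libraries. Scaled to library size these were 5.79, 7.95 and 4.97 CPM in Stag2KO and 2.59, 1.40 and 2.34 CPM in Stag2WT. Every Stag2KO library thus lay above every Stag2WT library. The means were 6.24 ± 1.54 CPM in Stag2KO and 2.11 ± 0.627 CPM in Stag2WT (SD, n = 3 each), a ratio of 2.96 and a difference larger than either SD. The sum was not given a p-value, because its members were chosen with earlier results of these data known. In mixed marrow, more cells that carry these RNAs and more RNA per cell cannot be told apart.

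**Figure D1:**
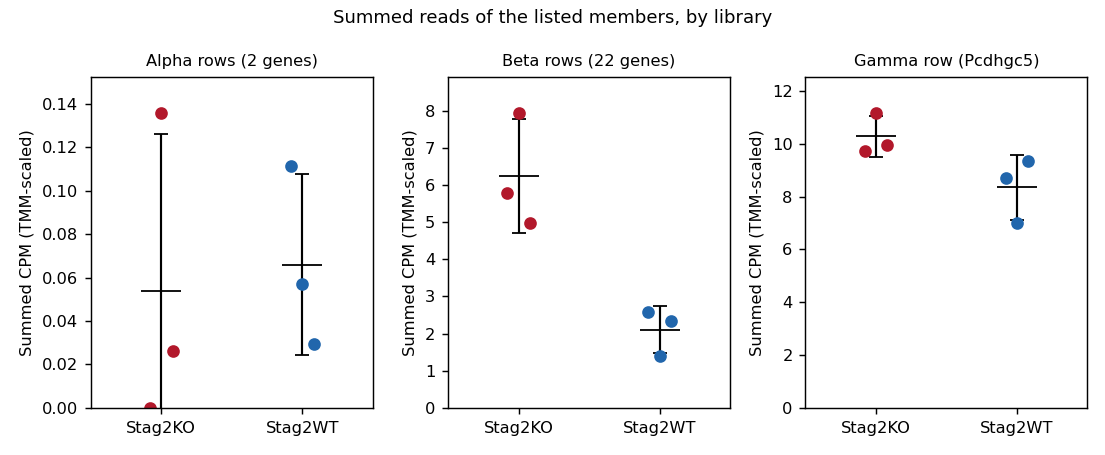
Summed CPM of the alpha rows, the beta rows and the gamma row in each library, with Stag2KO on the left and Stag2WT on the right of each panel; points are libraries, long ticks are group means and bars are SD (n = 3 each), and each panel has its own vertical scale. Beta libraries stood at 4.97 to 7.95 CPM in Stag2KO and 1.40 to 2.59 CPM in Stag2WT, while the alpha groups overlapped.

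The gain was much smaller in the gamma row, and none could be seen in the alpha rows. Pcdhgc5, which in neurons carries a constitutively expressed C-type variable exon, had 284, 411 and 380 reads in Stag2KO libraries and 313, 245 and 320 reads in Stag2WT libraries. Scaled to library size, the Stag2KO values of 9.73, 11.2 and 9.95 CPM lay just above the Stag2WT values of 8.70, 6.99 and 9.36 CPM. The row was at 1.23 times the Stag2WT mean and was not called (log2 fold change 0.30, SE 0.14, adjusted p = 0.165, edgeR). Pcdha11 had 0, 5 and 1 reads in Stag2KO and 4, 2 and 1 reads in Stag2WT, with a ratio of 0.866 and a 95% counting interval of 0.24 to 3.01, and Pcdha3 had 0 reads in all libraries. At this depth a difference in the alpha rows was not detectable.

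Reads of the beta genes can also be set against the Pcdhgc5 row of the same library, which needs no library scaling. For every 100 Pcdhgc5 reads there were 59.5, 71.0 and 50 beta reads in the Stag2KO libraries, against 29.7, 20 and 25 in the Stag2WT libraries. The groups again did not overlap, and the mean was 2.42 times as high in Stag2KO.

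At the level of single genes, 4 beta members rose: Pcdhb5, Pcdhb16, Pcdhb19 and Pcdhb22. Each encodes an adhesion receptor of the cadherin family. Only 6 members (5 beta genes and Pcdhgc5) had enough reads to be tested, so 19 of 25 members have no test. With a threshold of 0.05 on the adjusted p, 21.2% of all 15708 tested genes were called (10.7% higher and 10.5% lower), and none of the members was called lower. Among the 2331 tested genes with as few reads as the tested beta genes (60 to 216 in all libraries together), 5.92% were called higher and 6.74% lower. The filter asks for about 10 reads, scaled to library size, in at least 3 libraries. Pcdhb5, Pcdhb19 and Pcdhb22 had fewer than 10 reads in every Stag2WT library and passed it only through their Stag2KO values. These genes could be tested only because they were high in Stag2KO, so the shares above cannot be set against a share of the tested members.

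Pcdhb16 had the most reads of the cluster, with 37, 86 and 47 reads in Stag2KO libraries and 23, 11 and 12 reads in Stag2WT libraries. All Stag2KO values exceeded all Stag2WT values, and Stag2KO replicate 2 stood highest. It averaged 1.61 ± 0.63 CPM in Stag2KO and 0.435 ± 0.178 CPM in Stag2WT (SD, n = 3 each; log2 fold change 1.88, SE 0.38, adjusted p = 0.0125, edgeR). It was the only member called in each of the 6 fits that left out a library, with adjusted p from 0.0149 to 0.0494.

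Pcdhb5 had 12, 32 and 19 reads in Stag2KO libraries, against 4, 0 and 4 reads in Stag2WT libraries. It showed the largest fold change among the tested members, and it stood apart from its low neighbours in the first part of the cluster. It averaged 0.593 ± 0.244 CPM in Stag2KO and 0.0761 ± 0.0659 CPM in Stag2WT (SD, n = 3 each; log2 fold change 2.92, SE 0.65, adjusted p = 0.0175, edgeR). Without Stag2KO replicate 2 it was no longer called (adjusted p = 0.0568).

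Pcdhb19 had 14, 24 and 13 reads in Stag2KO libraries and 2, 1 and 6 reads in Stag2WT libraries. The groups were well separated, but the 3 Stag2WT values together amount to only 9 reads. The log2 fold change was 2.47 (SE 0.57, adjusted p = 0.0203, edgeR). It was no longer called when Stag2KO replicate 2 was left out (adjusted p = 0.0669), nor without the first (0.0601) or the second (0.0656) Stag2WT library. Without Stag2WT replicate 3 the log2 fold change was 3.43.

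Pcdhb22, the last gene of the cluster, had 17, 29 and 23 reads in Stag2KO libraries, against 9, 3 and 8 reads in Stag2WT libraries. Here too the groups did not overlap. The log2 fold change was 1.78 (SE 0.40, adjusted p = 0.0183, edgeR), and dropping Stag2KO replicate 2 ended the call (adjusted p = 0.0609).

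Pcdhb17 was the tested beta gene that did not pass the threshold. It had 26, 34 and 30 reads in Stag2KO libraries and 18, 5 and 19 reads in Stag2WT libraries. The Stag2KO values were close together and above the Stag2WT values, whose spread came from Stag2WT replicate 2. The log2 fold change was 1.11 (SE 0.42, adjusted p = 0.0911, edgeR), and it was not called in any fit that left out a library.

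**Figure D2:**
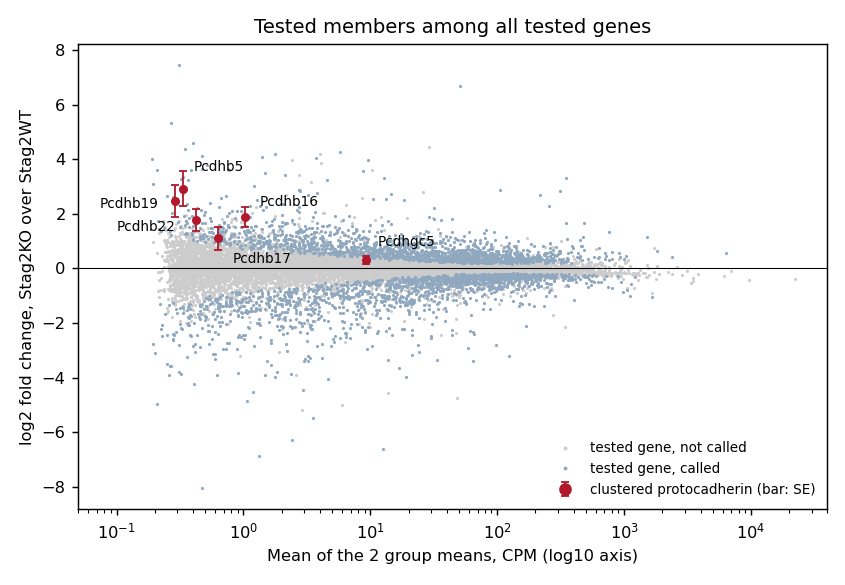
Log2 fold change of Stag2KO over Stag2WT against mean CPM (log10 axis) for all 15708 tested genes, with the 6 tested clustered protocadherins in red and their SE as bars. The 5 beta genes lie between 1.11 and 2.92 at the low end of the expression range, and Pcdhgc5 lies at 0.30.

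The beta genes below the test's filter were also mostly higher in Stag2KO. Summed over these 17 genes, there were 63, 87 and 58 reads in Stag2KO libraries and 37, 29 and 31 reads in Stag2WT libraries. The means were 2.01 ± 0.442 CPM in Stag2KO and 0.921 ± 0.101 CPM in Stag2WT (SD, n = 3 each), a ratio of 2.19. So the beta sum does not rest on the called genes alone, although its ratio is lower without them, at 2.18.

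Pcdhb18, Pcdhb20, Pcdhb21 and Pcdhb4 were the best covered of these. Pcdhb20 had 8, 15 and 10 reads in Stag2KO libraries and 2, 0 and 6 reads in Stag2WT libraries. Its neighbour Pcdhb21 had 8, 16 and 11 reads in Stag2KO libraries and 3, 0 and 5 reads in Stag2WT libraries. In both genes the groups were apart, with ratios of 4.17 (95% counting interval 1.89 to 10.4) and 4.42 (2.01 to 11).

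Pcdhb18 had 19, 23 and 7 reads in Stag2KO libraries, against 9, 7 and 6 reads in Stag2WT libraries. Stag2KO replicate 3 fell within the Stag2WT range once scaled to library size, so the groups overlapped. Pcdhb4 had 4, 5 and 12 reads in Stag2KO libraries and 2, 3 and 4 reads in Stag2WT libraries, with no overlap and a ratio of 2.36 (95% counting interval 1.03 to 5.85). These intervals cover counting error only and take no account of the spread between libraries.

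The remaining 13 beta genes had 28 reads or fewer each, and most had under 10. Pcdhb6 and Pcdhb8 had 0 reads in every library. Pcdhb1 had 5 reads, all in Stag2KO replicate 2, and Pcdhb2 had 2 reads, both in Stag2KO libraries. No ratio is given for these 4 genes. For Pcdhb3, Pcdhb10, Pcdhb11, Pcdhb12, Pcdhb13 and Pcdhb14 the counting intervals of the ratio all included no difference, as did those of Pcdhb7 and Pcdhb15.

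Pcdhb9 ran the other way. It had 3, 3 and 2 reads in Stag2KO libraries, against 10, 6 and 4 reads in Stag2WT libraries. All Stag2KO values lay below the Stag2WT values, with a ratio of 0.404 and a counting interval of 0.154 to 0.958. It was picked out after its values were seen and did not pass the filter of the test. Under looser filters it was tested and not called by edgeR, with an adjusted p of 0.176 when 10 reads over all libraries were enough and 0.234 with no filter beyond 1 read. Pcdhb7, separated from Pcdhb9 by Pcdhb8, had 9 reads in each group.

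Of the 20 beta genes with any reads, 9 had all Stag2KO values above all Stag2WT values and 1 had them all below. Among the 10598 genes of the table with 1 to 216 reads, the shares were 8.03% above and 7.83% below. That range takes in genes with fewer than 3 reads, whose groups cannot stand apart, so these shares are not matched to the coverage of the beta genes. By group means, 19 beta genes were higher in Stag2KO and 1 was lower. Leaving out a library moved these counts of means to between 16 and 19 higher and between 1 and 3 lower. The genes are measured in the same libraries and are not independent, so these counts are a description.

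**Figure D3:**
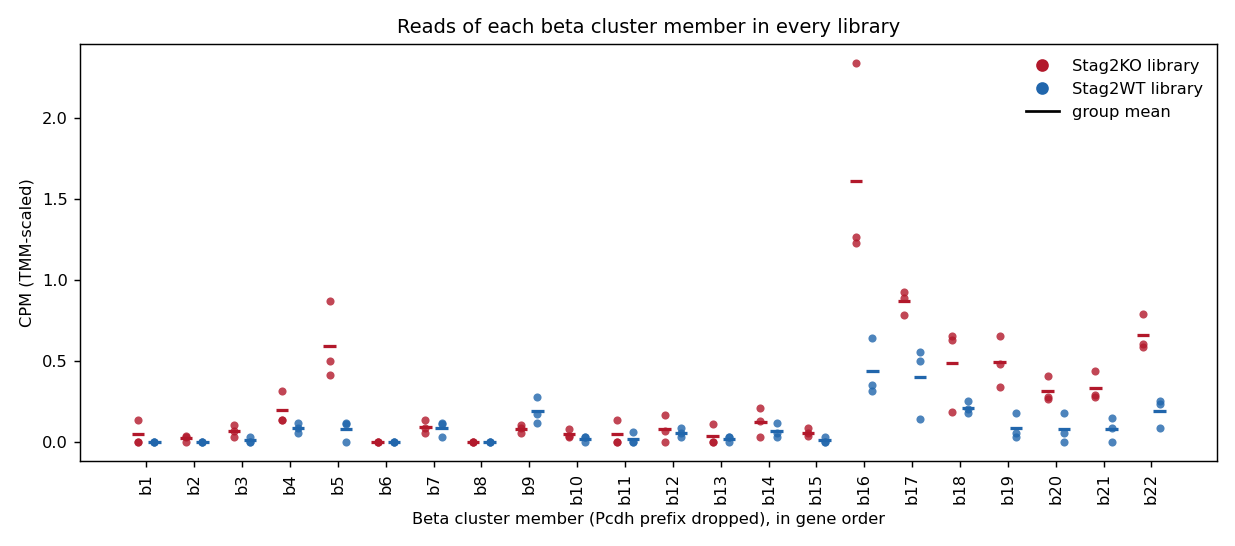
CPM of the 22 beta genes in each library, in their order along the chromosome, with Stag2KO points left of Stag2WT points and short lines at the group means. The run from Pcdhb16 to Pcdhb22 holds most reads, Pcdhb5 stands out among the earlier genes, and Pcdhb9 is the gene whose Stag2KO points all lie below its Stag2WT points.

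Most beta reads came from the last genes of the cluster, with no account taken of gene length. The genes from Pcdhb16 to Pcdhb22, a stretch marked off after the values were seen, held 76.3% of beta reads in Stag2KO (95% exact binomial interval 72.9 to 79.6) and 69.8% in Stag2WT (63.3 to 75.8). By library the share was 76.3%, 77.7% and 74.2% in Stag2KO and 71.0%, 55.1% and 77.5% in Stag2WT. These ranges overlap, so the share of this stretch did not separate the groups, while the totals did. Single genes, picked after the values were seen, could differ in share. Pcdhb5 held 9.68% of beta reads in Stag2KO (7.52 to 12.2) and 3.6% in Stag2WT (1.57 to 6.98). Pcdhb9 held 1.23% in Stag2KO (0.532 to 2.41) and 9.01% in Stag2WT (5.59 to 13.6). The binomial intervals cover counting error only.

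Both stretches were higher in Stag2KO. Pcdhb16 to Pcdhb22 together stood at 4.42, 6.18 and 3.69 CPM in Stag2KO libraries and at 1.84, 0.77 and 1.81 CPM in Stag2WT libraries, a ratio of 3.23. Pcdhb1 to Pcdhb15 together stood at 1.37, 1.77 and 1.28 CPM in Stag2KO libraries and at 0.751, 0.628 and 0.526 CPM in Stag2WT libraries, a ratio of 2.32. In this first stretch Pcdhb5 carried much of the difference, and without it the ratio was 1.58.

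**Figure D4:**
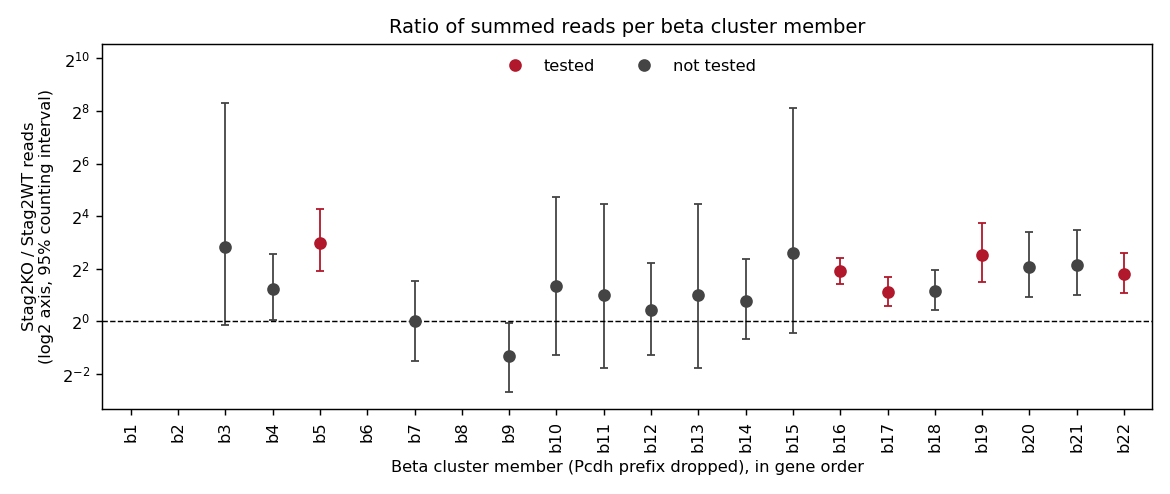
Ratio of summed reads, Stag2KO over Stag2WT, for each beta gene in chromosomal order on a log2 axis, with 95% counting intervals; red points were tested, grey points were not, and Pcdhb1, Pcdhb2, Pcdhb6 and Pcdhb8 have no ratio because the Stag2WT libraries held 0 reads. Every gene from Pcdhb16 to Pcdhb22 has an interval above 1, whereas the interval of Pcdhb9 lies below 1.

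Levels of different genes were compared per length, as CPM per kilobase of exon in GENCODE M21 gene models. The labels describe both 3' and full-length library chemistry for other populations and do not say which was used here, and length scaling holds only for full-length libraries. In Stag2KO, Pcdhb16 was highest at 0.309 ± 0.121, followed by Pcdhb17 at 0.186 ± 0.0156 and Pcdhb5 at 0.168 ± 0.0691 CPM per kilobase (SD, n = 3 each). The last 2 do not differ beyond their spread. In Stag2WT, Pcdhb17 (0.0857 ± 0.0481) and Pcdhb16 (0.0832 ± 0.0341) stood side by side, followed by Pcdhb9 at 0.0618 ± 0.0268, while Pcdhb5 was at 0.0215 ± 0.0187 CPM per kilobase. Pcdhb19 to Pcdhb22 were at 0.0121, 0.0216, 0.0163 and 0.0287 in Stag2WT, beside 0.0231 for Pcdhb4 and 0.0242 for Pcdhb7. Per length, the last genes of the cluster were thus not all above the earlier ones in Stag2WT.

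The median share of repeated sequence was alike in beta genes with many and with few reads. A read that fits more than 1 place was not assigned to a gene, so near-identical stretches lower a gene's count. In GENCODE M21 transcripts, a median of 4.48% of the 50-base words of the 10 beta genes with most reads also occurred in a transcript of another gene, against 4.5% for the 12 genes with fewest reads. The ranges were 2.05% to 11.3% and 0% to 64.2%. Only exact words in annotated transcripts were counted, and the effect of such copies on the reads was not tested. Pcdhb12 was the exception, with 64.2% of its words shared and 14 reads in all. The silent Pcdhb6 and Pcdhb8 had 7.69% and 6.12% of their words shared.

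Other measures of the libraries differed between the groups as well. Reads in no annotated gene made up 11.1%, 12.8% and 11.2% of the Stag2KO libraries and 8.84%, 8.81% and 10.1% of the Stag2WT libraries. These groups do not overlap. Within a group the share and the beta sum did not keep the same order: Stag2KO replicate 2 was highest in both, but Stag2KO replicate 3 had a slightly higher share and a lower beta sum than Stag2KO replicate 1. Stag2WT replicates 1 and 2 had nearly the same share, with beta sums of 2.59 and 1.40 CPM. Genotype and this share cannot be told apart for the beta genes.

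Because 18 of the 22 beta genes have a single exon in GENCODE, they were set beside other coding genes of that kind, a comparison chosen after the values were seen. The 325 such genes with 1 to 216 reads summed to 69.0, 64.5 and 60.9 CPM in Stag2KO libraries and 62.2, 63.6 and 62.8 CPM in Stag2WT libraries, a ratio of 1.03. Of the 88 tested, 3 were called higher and 4 lower, with a median log2 fold change of -0.05. Olfactory receptor genes, which are silent outside the nose in the main, summed to 10.2, 13.9 and 15.8 CPM in Stag2KO and 11.6, 6.62 and 11.3 CPM in Stag2WT, overlapping groups with a ratio of 1.35. Of the 9 olfactory receptor genes tested, 2 were called higher and 0 lower by edgeR, with a median log2 fold change of 0.42. The share called higher was thus 22.2% for olfactory receptor genes and 3.41% for the low single-exon genes. It was 10.7% of all tested genes and 5.92% of those with 60 to 216 reads. Genes with few reads can pass the filter through 1 group alone, so these shares are a description. The ratios of 1.03 and 1.35 were below the 2.96 of the beta sum, and a part of gene structure in the beta reads was not tested.

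**Figure D5:**
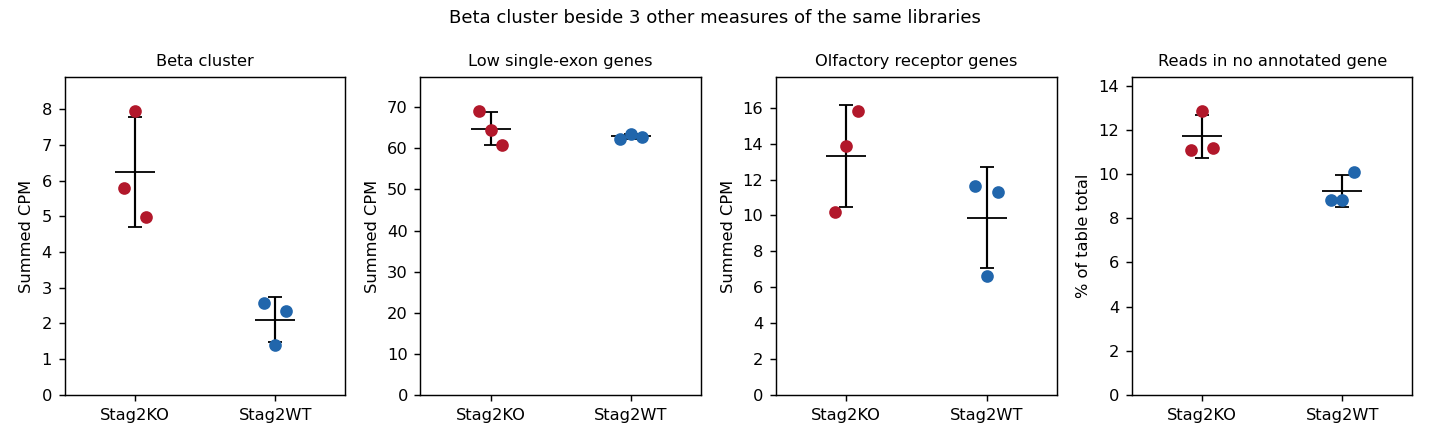
Beta cluster sum, low single-exon coding genes, olfactory receptor genes (summed CPM) and reads in no annotated gene (percent of the table total) in each library, with Stag2KO left of Stag2WT; points are libraries, long ticks are means and bars are SD (n = 3 each). The groups are apart in the beta sum and in the percentage of reads outside annotated genes, whereas the other 2 measures overlap.

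Marker genes of several cell types also differed between the groups. For these too, cell numbers and RNA per cell cannot be told apart. The list counts here and in the next paragraph stand beside 10.7% higher and 10.5% lower over all tested genes. Of 15 neural and Schwann cell genes in the table, Snap25 and Nefm were at 0, Sox10 and Nefl had 1 read each, in a Stag2KO library, and Syt1 had 2 reads, in a Stag2WT library. Of the 9 tested, 1 was higher and 4 lower. Ncam1, an adhesion molecule gene also used by lymphoid and other blood cells, averaged 50.8 ± 4.48 CPM in Stag2KO and 20.4 ± 2.21 CPM in Stag2WT (SD, n = 3 each; log2 fold change 1.32, adjusted p = 0.000506, edgeR), and Gfap, Ngfr, Cnp and L1cam were the lower genes. The myelin gene Mbp averaged 114 CPM in both groups and was not called (log2 fold change 0.00). The list summed to 272 to 294 CPM in Stag2KO libraries and 289 to 355 CPM in Stag2WT libraries, overlapping ranges. Mbp, Cnp, Ncam1 and L1cam made up most of this sum, so it says little about the other genes of the list. Stromal and bone lineage genes summed to 268 to 336 CPM in Stag2KO and 414 to 468 CPM in Stag2WT, with 1 of 18 tested genes higher and 11 lower. Endothelial genes summed to 280 to 295 CPM in Stag2KO and 224 to 266 CPM in Stag2WT, with 6 of 13 higher and 1 lower.

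Among blood cells, 9 of 18 stem and progenitor genes were higher and 2 lower, and 7 of 12 eosinophil and basophil genes were higher and 3 lower. Monocyte and macrophage genes (0 higher and 14 lower of 18) summed to 937 to 1031 CPM in Stag2KO and 1881 to 2113 CPM in Stag2WT. B lymphocyte genes (0 higher and 14 lower of 14) summed to 146 to 164 CPM in Stag2KO and 352 to 538 CPM in Stag2WT. Of 12 T and natural killer cell genes 1 was higher, 5 lower and 6 not called, while their sum was higher in Stag2KO, at 369 to 461 CPM against 302 to 360 CPM in Stag2WT. Eosinophil and basophil genes summed to 5552 to 7660 CPM in Stag2KO and 3677 to 4157 CPM in Stag2WT. The part of these shifts in the beta reads was not tested.

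Genes lying between and beside the clusters did not share the beta increase as a group. Slc25a2, a mitochondrial ornithine carrier gene between the beta and gamma clusters, was at 0.274, 0.272 and 0.0524 CPM in Stag2KO and 0.139, 0.514 and 0.38 CPM in Stag2WT, and was not called (log2 fold change -0.81, adjusted p = 0.388, edgeR). Taf7, a gene of the basal transcription factor TFIID next to it, averaged 23.6 ± 0.89 CPM in Stag2KO and 25.1 ± 3.34 CPM in Stag2WT (SD, n = 3 each; log2 fold change -0.09, adjusted p = 0.605, edgeR). Hdac3, a histone deacetylase gene beyond the gamma cluster, was also not called (log2 fold change 0.02, adjusted p = 0.888, edgeR).

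Among 27 tested genes around the clusters, 3 were higher, 6 lower and 18 not called, with a median log2 fold change of -0.09 beside 0.01 over all tested genes. Diap1, an actin-nucleating formin gene next after Pcdhgc5, stood at 279, 278 and 277 CPM in Stag2KO libraries and 225, 199 and 225 CPM in Stag2WT libraries (log2 fold change 0.36, adjusted p = 0.00838, edgeR). Fchsd1 (log2 fold change 0.47, adjusted p = 0.0182) and the GTPase regulator gene Arap3 (0.57, adjusted p = 0.00381) also rose. The lower genes were Hars (-0.55), Wdr55 (-0.39), the monocyte receptor gene Cd14 (-2.14), Gnpda1 (-0.66), Ndfip1 (-0.31) and the growth factor gene Fgf1 (-3.19), all by edgeR with adjusted p from 0.00057 to 0.0172. Fchsd1 was no longer called without Stag2KO replicate 2 (adjusted p = 0.0557) or 3 (0.062), nor was Wdr55 without Stag2KO replicate 1 (0.0537) or 3 (0.0506). Without Stag2KO replicate 3 the log2 fold change of Cd14 was -2.91.

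Few genes known to regulate the clusters were called. Of 28 tested regulators, 1 was higher, 2 lower and 25 not called, while 21.2% of all tested genes were called. Stag2 was lower, and so was Wapal, which releases cohesin from chromatin (log2 fold change -0.31, adjusted p = 0.0206), which was no longer called without Stag2KO replicate 1 (0.0661) or 3 (0.0803). Ehmt2, a histone H3 lysine methyltransferase gene, was higher (0.22, adjusted p = 0.0438), a call that held only without Stag2WT replicate 3 among the fits that left out a library. Ctcf (-0.05, adjusted p = 0.583), Stag1 (0.14, adjusted p = 0.14), Smchd1, a silencer of the clusters (-0.19, adjusted p = 0.0523), the DNA methyltransferase gene Dnmt3b (0.11, adjusted p = 0.568) and Rest, a repressor of neuronal genes (0.19, adjusted p = 0.078), were not called by edgeR.

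Protocadherins outside the clusters were few in this marrow. Of 12 listed in the table only Pcdh1 and Pcdh7 could be tested. Pcdh1, which lies beyond the gamma cluster on the same chromosome, had 9, 13 and 12 reads in Stag2KO libraries and 2, 5 and 3 reads in Stag2WT libraries. It was called higher (log2 fold change 1.74, SE 0.44, adjusted p = 0.0285, edgeR), but the call held only without Stag2WT replicate 2 among the fits that left out a library. Pcdh1 had fewer than 10 reads in every Stag2WT library and passed the filter only through its Stag2KO values. It could thus be tested only because it was high in Stag2KO. Pcdh7 averaged 2.91 ± 0.189 CPM in Stag2KO and 3.11 ± 0.139 CPM in Stag2WT (SD, n = 3 each; log2 fold change -0.09, adjusted p = 0.711, edgeR).

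Other cadherins moved in both directions, with 1 of 11 tested genes higher, 3 lower and 7 not called. The shares over all tested genes were 10.7% higher and 10.5% lower, for these genes and the partners below. Cdh1, the gene of E-cadherin, fell to 15.1 ± 3.06 CPM in Stag2KO, against 72.8 ± 8.57 CPM in Stag2WT (SD, n = 3 each; log2 fold change -2.27, adjusted p = 0.000406, edgeR). Celsr3, an adhesion receptor gene with cadherin repeats, averaged 35.0 ± 1.66 CPM in Stag2KO and 14.2 ± 2.07 CPM in Stag2WT (SD, n = 3 each; log2 fold change 1.31, adjusted p = 0.000635, edgeR). Among 16 tested partners of clustered protocadherin proteins, 1 was higher, 2 lower and 13 not called. Marcks, a membrane-bound actin regulator gene, fell (log2 fold change -1.27, adjusted p = 0.00579, edgeR). The focal adhesion kinase gene Ptk2 was lower (-0.48, adjusted p = 0.019) and Nckap1l, a subunit gene of the actin-regulating WAVE complex in blood cells, was higher (0.27, adjusted p = 0.0477). Ptk2 missed the threshold without Stag2KO replicate 2 (0.0665) or 3 (0.0665) or Stag2WT replicate 2 (0.0545), and Nckap1l in 5 of the 6 fits that left out a library (0.0567 to 0.151).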

How the data were processed

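RNA was measured in 3 Stag2KO and 3 Stag2WT libraries. The authors deposited raw read counts per gene symbol, with no normalization. The submitters' processing notes name build mm9 and the tools HTSeq 0.6.1, STAR 2.4 and DESeq2. Annotation, library kit and strand are not given there or in the labels for these samples. Rows that name no gene were left out (reads in no gene 8.81% to 12.8%, ambiguous 2.02% to 2.2%, aligned to several places 23.4% to 28.6% of a library). Replicates were numbered in accession order; within each group they differed beyond sampling noise (chi-square per degree of freedom 22.6 to 47.1).

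The test was edgeR 4.0.16's quasi-likelihood test under R 4.3.3 (TMM, filterByExpr with a minimum count of 10, robust fit, Benjamini-Hochberg adjustment over 15708 genes, threshold 0.05), after the script was tested on simulated data. CPM uses TMM-scaled totals of all gene reads. Gene order came from RefSeq GRCm38 and exon lengths from GENCODE M21, without coordinates. Of the list of genes around the clusters, Ndufaf2 was dropped because RefSeq places it elsewhere. Alternatives were median-ratio and unscaled library sizes, 3 other filters, DESeq2 1.42.0, limma-voom (limma 3.58.1), no robust estimation and each library left out. Members, lists and tests were chosen with earlier results of these data known. All tested members were named, untested ones if among the 10 with most reads, and called genes of the regulator, non-clustered and neighbouring lists; other members and genes were picked after their values were seen.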

Additional observations from a re-analysis of the deposited data

How the results depend on the processing

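The log2 ratio of the beta sum, 1.56 as reported, ran from 1.34 to 1.74 when a library was left out, and from 1.13 to 1.83 over the scaling and member choices, of which leaving out the 4 called genes and keeping only untested genes were chosen after seeing the data. The gamma row ran from 0.19 to 0.39 and the alpha sum, on 13 reads, from -2.33 to 0.32 when a library was left out. Stag2 stayed called, at -0.91 to -0.84. The count of members called higher was 4, and 1 to 5 when a library was left out, lowest without Stag2KO replicate 2. It was 2 with DESeq2, which gave Pcdhb5 and Pcdhb19 no adjusted p, and 0 when a gene needed 5 CPM or more in 3 libraries, a filter that only Pcdhgc5 passed. Without a filter beyond 1 read 22 members were tested and 5 called higher, the added one being Pcdhb21. In all settings 0 members were called lower. Called genes in the whole table numbered 3333, and 1967 to 2548 when a library was left out. Of the values of single named genes under alternatives, 342 kept their direction and side of the threshold, 37 lost a call and none turned round. Settings in which a gene was not tested or had no adjusted p are left out of this tally. Among those are all 5 tested beta genes under the 5 CPM filter, and Pcdhb5 and Pcdhb19 under DESeq2. No paired analysis was possible because the labels give no replicate numbers that the groups share. Depth limits the alpha rows, with 0 and 13 reads in all libraries together, and the 17 untested beta genes, with 0 to 71 reads each.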
